A study of Homo sapiens with 2 samples.

Results

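The 9 genes described here, PHGDH, PSAT1, PSPH, SHMT1, SHMT2, MTHFD1, MTHFD2, MTHFD1L and ALDH1L2, encode the enzymes that make serine and move its carbon onto folate. They were taken from 19775 genes on the array by name, and their values are those of every probe set that the platform annotation pairs with 1 of these genes alone, 20 probe sets in all. RNA came from cultures of H322c, an established non-small cell lung cancer (NSCLC) line, after 4 days with 1 µM gefitinib, an inhibitor of the EGFR kinase, or after 4 days with 0.1% DMSO, the vehicle. The drug or vehicle was added 24 hrs after plating. Each condition was measured on 1 Affymetrix U133 Plus 2.0 array, so there are no replicates, no test was possible, and every difference describes these 2 arrays of 1 cell line.

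Serine synthesis branches from glycolysis. PHGDH, PSAT1 and PSPH act in that order to turn phosphoglycerate into serine, and the SHMT enzymes then split serine into glycine and a one-carbon unit carried by tetrahydrofolate. In mitochondria the unit is oxidized by MTHFD2 and released as formate by MTHFD1L, or oxidized to carbon dioxide by ALDH1L2. In the cytosol MTHFD1 takes up formate again, and the units are used to build purines and thymidylate and to regenerate methionine. Several genes of the pathway are known targets of the transcription factor ATF4, and MTHFD2 is known for its high expression in proliferating and tumour cells.

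A probe set is a group of short oligonucleotides against a transcript, and its value is a MAS5 signal on a linear scale. Signals below 100 were set to 100, and a gene was counted as measured where either array gave it a signal of 100 or more. The floor was not reached by 60.4% of probe sets with gefitinib and 61.6% with DMSO. Of 11223 measured genes, 1491 (13.3%) were at least 2-fold higher with gefitinib and 696 (6.20%) at least 2-fold lower, at the brightest probe set of each gene. The genes past 2-fold were thus higher in 68.2% of cases, a share of 50.9% with scaling to the hybridization spike-ins, 57.6% after lowess correction and 80.2% with scaling to GAPDH. For 4610 genes with more than 1 probe set, the log2 ratio varied between them with an SD of 0.54, which does not cover the spread between cultures. In RNA from whole cultures, a change in the cells present and a change in RNA per cell cannot be told apart. All 5 epithelial markers (EPCAM, CDH1, KRT8, KRT18 and KRT19) were measured, with log2 ratios between -0.77 and 0.17 and summed signals of 107682.6 with gefitinib and 130719.3 with DMSO. Of the 3 leukocyte markers with a probe set, none reached the floor. Of 4 lung lineage markers, NKX2-1 was 769.6 and SFTPD 799.6 with gefitinib and both were below the floor with DMSO, while SFTPB and SFTPC were within 2-fold. Of 3 endothelial markers, VWF was at least 4.96-fold higher with gefitinib, PECAM1 at least 1.28-fold lower and CDH5 below the floor. Of 4 fibroblast markers, COL1A1 was 2.26-fold higher (log2 ratio 0.99 with spike-in scaling) and COL3A1, DCN and LUM were below the floor. The red cell gene HBB was 57.8 with gefitinib and 110.7 with DMSO, with ALAS2 below the floor. The part of these differences in the values below was not tested.

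Of the 9 enzymes, 5 were measured and none of the 5 was 2-fold higher or 2-fold lower, against the 13.3% and 6.20% of all measured genes given above. MTHFD1 lay at the lower limit with a ratio of 1.997-fold, PSPH was 1.74-fold higher, and PHGDH, SHMT2 and MTHFD2 were within 1.5-fold. The median log2 ratio of gefitinib over DMSO was 0.10 for the 5 enzymes and 0.12 for all measured genes. At a limit of 1.5-fold, 1 of the 5 was higher (PSPH) and 1 was lower (MTHFD1), where 26.4% of all measured genes were higher and 14.9% were lower. PSAT1, SHMT1, MTHFD1L and ALDH1L2 were below the floor at each of the 9 probe sets that name them alone, with signals between 0.3 and 47.6. For SHMT1 and MTHFD1L this does not mean absent RNA, since probe sets that list them with other genes reached the floor. The highest with gefitinib were 5902.4 for SHMT1 and 876.5 for MTHFD1L, and these are described below and in no count.

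**Figure D1:**
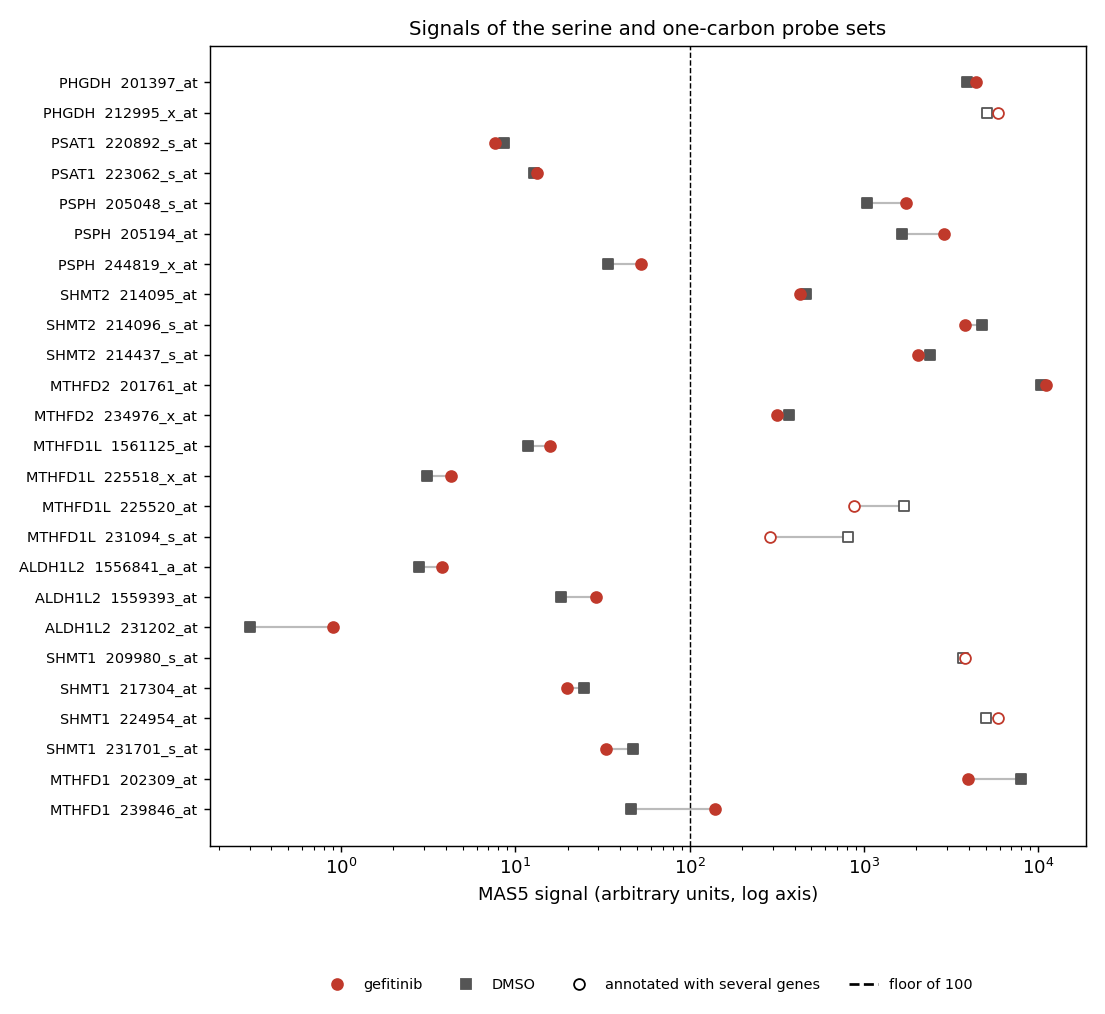
MAS5 signal (horizontal log axis) of the 25 probe sets annotated with the 9 enzymes, on the gefitinib array (red circles) and the DMSO array (grey squares), 1 array per condition. Open symbols are the 5 probe sets annotated with several genes, and the dashed line is the floor of 100; the MTHFD1L row 225520_at has 876.5 with gefitinib and 1701.4 with DMSO, while both rows of PSAT1 lie far to the left of the floor.

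The serine synthesis enzymes differed in whether they were detected. PHGDH, the dehydrogenase that commits phosphoglycerate to serine, had a signal of 4420.5 with gefitinib and 3898.4 with DMSO at 201397_at, 1.13-fold higher (log2 ratio 0.18). A further probe set, 212995_x_at, is annotated with PHGDH together with MZT2A and MZT2B, so it stands for no single gene. Its signal was 5875.5 with gefitinib and 5114.9 with DMSO, 1.15-fold higher. The value of PHGDH was close to no difference, and spike-in scaling brought its log2 ratio to -0.01.

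PSPH, the phosphatase of the last step, was higher with gefitinib at each probe set that reached the floor. The signal of PSPH at 205194_at was 2869.6 with gefitinib and 1648.4 with DMSO, 1.74-fold higher (log2 ratio 0.80). At 205048_s_at it was 1742.2 with gefitinib and 1048.3 with DMSO, 1.66-fold higher (log2 ratio 0.73). The third PSPH probe set, 244819_x_at, was below the floor on both arrays, at 52.5 with gefitinib and 34.0 with DMSO. PSPH ranked at 1767 from the highest among the 10190 genes with both signals at the floor or over it, so that 17.3% of them had a higher ratio. Its log2 ratio lay between 0.61 and 0.98 over the scalings tried, on the same side of 0 throughout and under 2-fold throughout. The log2 ratio of PSPH exceeded that of PHGDH by 0.62. The SD of 0.54 between probe sets of 1 gene is for single values, and a difference between 2 of them varies more. This difference was therefore not set apart from the spread between probe sets.

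PSAT1, the aminotransferase between PHGDH and PSPH, was not detectable at either of its probe sets. Its signal was 13.4 with gefitinib and 12.8 with DMSO at 223062_s_at, and 7.7 with gefitinib and 8.6 with DMSO at 220892_s_at. Both were far below the floor on both arrays, so PSAT1 was not measured and no fold was computed for it, while the enzymes before and after it in the path were measured.

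Of the mitochondrial folate enzymes, SHMT2 and MTHFD2 were measured and stayed near their DMSO signals. SHMT2, the mitochondrial serine hydroxymethyltransferase, was slightly lower at all 3 of its probe sets. Its brightest, 214096_s_at, had 3782.5 with gefitinib and 4733.1 with DMSO, 1.25-fold lower (log2 ratio -0.32). The log2 ratio was -0.25 at 214437_s_at (2032.3 with gefitinib and 2410.0 with DMSO) and -0.10 at 214095_at (431.7 with gefitinib and 462.9 with DMSO). These differences are smaller than the spread between probe sets of 1 gene, and at 214095_at the log2 ratio went up to 0.08 over the scalings tried.

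MTHFD2, the mitochondrial dehydrogenase and cyclohydrolase, had a signal of 11036.0 with gefitinib and 10310.0 with DMSO at 201761_at, 1.07-fold higher (log2 ratio 0.10). Its other probe set, 234976_x_at, went the other way, with 319.0 with gefitinib and 371.8 with DMSO, 1.17-fold lower (log2 ratio -0.22). Over the scalings tried the log2 ratio at 201761_at lay between -0.09 and 0.29, so no direction can be given for MTHFD2. ALDH1L2, which oxidizes the formyl unit to carbon dioxide, was below the floor at its 3 probe sets, the highest of which was 1559393_at with 29.2 with gefitinib and 18.4 with DMSO.

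MTHFD1L, the mitochondrial formyltetrahydrofolate synthetase that releases formate, was below the floor at both probe sets that name it alone, 1561125_at (15.9 with gefitinib and 11.8 with DMSO) and 225518_x_at (4.3 with gefitinib and 3.1 with DMSO). The other 2 probe sets annotated with MTHFD1L also list the transcribed pseudogenes LOC100996643 and LOC101928195, so their signal cannot be given to 1 gene, and both were lower with gefitinib. At 225520_at the signal was 876.5 with gefitinib and 1701.4 with DMSO, 1.94-fold lower (log2 ratio -0.96). At 231094_s_at it was 287.6 with gefitinib and 810.0 with DMSO, 2.82-fold lower (log2 ratio -1.49). Over the scalings tried these log2 ratios lay between -1.15 and -0.78 at 225520_at and between -1.68 and -1.32 at 231094_s_at.

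In the cytosol, MTHFD1 had the lowest ratio of the measured enzymes. It carries the synthetase, cyclohydrolase and dehydrogenase activities that bring formate back onto folate. Its signal at 202309_at was 3963.9 with gefitinib and 7917.6 with DMSO, 1.997-fold lower (log2 ratio -0.998), just short of the 2-fold limit. This ranked MTHFD1 at 642 from the lowest of the 10190 genes, so that 6.29% of them had a lower ratio. Over the scalings tried the log2 ratio lay between -1.19 and -0.82, and it passed 2-fold only with spike-in scaling. The second MTHFD1 probe set, 239846_at, went in the opposite direction near the floor, with 139.3 with gefitinib and 46.2 with DMSO, at least 1.39-fold higher. With the mean over both probe sets the log2 ratio of MTHFD1 was -0.26. The log2 ratio of MTHFD2, which has dehydrogenase and cyclohydrolase activities like those of MTHFD1 but in mitochondria, exceeded that of MTHFD1 by 1.10 at their brightest probe sets. The difference between PSPH, the highest, and MTHFD1, the lowest, was 1.80. With the mean over probe sets these differences were 0.20 for MTHFD2 and 1.03 for PSPH.

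SHMT1, the cytosolic serine hydroxymethyltransferase, was below the floor at the probe sets that name it alone, 231701_s_at (33.2 with gefitinib and 47.6 with DMSO) and 217304_at (19.8 with gefitinib and 24.7 with DMSO). Another pair of probe sets is annotated with SHMT1 and with MIR6778, a miRNA gene that lies inside the SHMT1 locus. These gave 5902.4 with gefitinib and 4995.6 with DMSO at 224954_at, 1.18-fold higher, and 3792.8 with gefitinib and 3677.8 with DMSO at 209980_s_at, 1.03-fold higher. The shared probe sets were thus near their DMSO signals for SHMT1, unlike those shared with MTHFD1L.

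**Figure D2:**
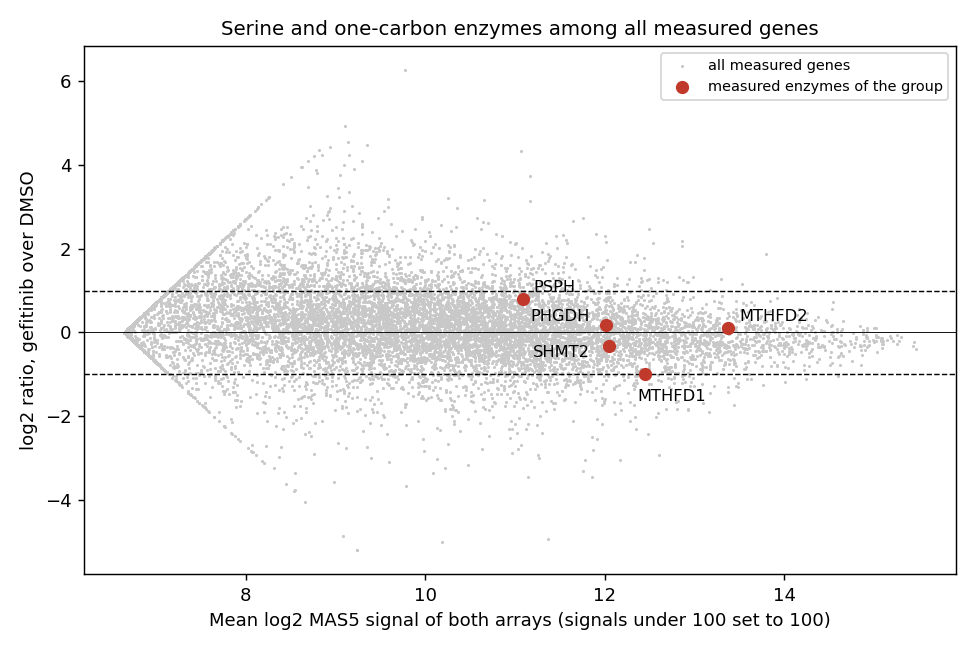
Each of the 11223 measured genes (grey) and the 5 measured enzymes (red) is placed by its log2 ratio, gefitinib over DMSO, on the vertical axis and by its mean log2 MAS5 signal on the horizontal axis, with 1 array per condition. Dashed lines mark 2-fold; PSPH (0.80) lies below the upper line and MTHFD1 (-0.998) on the lower one, and genes along the sloping borders, with the signal of 1 array under 100, are bounds.

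The promoters of MTHFD1 and MTHFD1L are shown because the lower ratios lay at probe sets annotated with these genes, that of MTHFD2 as the mitochondrial counterpart of MTHFD1, and that of PSAT1 because it was not detectable. PSPH, SHMT2 and ALDH1L2 had no window and were not searched. For the other 6 of the 9 genes RefSeq (GRCh38.p14) gave windows from 250 bases before to 50 after a start site. They were searched on both strands for CACGTG, the E-box bound by MYC and related factors, and for TTGCATCA (TGATGCAA on the other strand), the element bound by ATF4 with a C/EBP partner. Matches are in capitals.
MTHFD1 (chr14:64388103-64388402, plus strand): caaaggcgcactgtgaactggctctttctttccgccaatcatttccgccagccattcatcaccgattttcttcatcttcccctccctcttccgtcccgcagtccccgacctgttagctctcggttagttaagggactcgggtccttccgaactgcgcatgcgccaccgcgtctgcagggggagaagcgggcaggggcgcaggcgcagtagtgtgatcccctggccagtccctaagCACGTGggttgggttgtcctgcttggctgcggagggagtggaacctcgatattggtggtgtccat
MTHFD1L (chr6:150866236-150866535, plus strand): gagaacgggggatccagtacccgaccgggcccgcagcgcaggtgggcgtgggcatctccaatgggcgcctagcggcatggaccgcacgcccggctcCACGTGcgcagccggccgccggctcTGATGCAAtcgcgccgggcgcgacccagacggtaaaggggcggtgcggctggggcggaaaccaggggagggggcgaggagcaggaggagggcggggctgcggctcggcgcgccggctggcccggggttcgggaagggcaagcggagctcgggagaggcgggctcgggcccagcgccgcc
MTHFD2 (chr2:74198365-74198664, plus strand): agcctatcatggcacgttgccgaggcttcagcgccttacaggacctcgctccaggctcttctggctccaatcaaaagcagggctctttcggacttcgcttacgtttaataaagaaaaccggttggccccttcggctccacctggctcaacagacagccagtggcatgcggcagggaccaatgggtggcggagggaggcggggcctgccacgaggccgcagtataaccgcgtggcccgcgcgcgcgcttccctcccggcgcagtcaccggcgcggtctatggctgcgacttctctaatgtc
PSAT1 (chr9:78296875-78297174, plus strand): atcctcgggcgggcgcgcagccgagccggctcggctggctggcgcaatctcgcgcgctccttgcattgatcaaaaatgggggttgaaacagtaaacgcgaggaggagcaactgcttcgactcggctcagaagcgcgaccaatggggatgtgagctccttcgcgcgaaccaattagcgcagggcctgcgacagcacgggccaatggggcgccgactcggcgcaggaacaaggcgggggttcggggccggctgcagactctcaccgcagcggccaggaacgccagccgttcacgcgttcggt

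An E-box was found in the windows of 2 of these 6 genes, MTHFD1 and MTHFD1L, and the ATF4 element, in the exact letters searched, in 1, MTHFD1L. Among all 27305 genes with a window, 8.77% held an E-box and 1.08% the ATF4 element. The E-box of MTHFD1 began 15 bases before the start site. In MTHFD1L both motifs lay in the 3 overlapping windows of its 4 annotated start sites, and they did not overlap each other. The windows of PHGDH, PSAT1, MTHFD2 and SHMT1 held neither set of letters. Forms of these elements with other letters were not searched for, so these windows cannot be said to lack them. A match is a description of the sequence and the arrays hold no measurement of binding.

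Of the other folate genes measured, 7 of 12 had a log2 ratio below 0, as did 43.0% of all measured genes. Of 16 enzymes and carriers listed, 12 were measured, of which 2 were at least 2-fold lower and none reached 2-fold in the other direction, with a median log2 ratio of -0.24 against 0.12 for all measured genes. Of all measured genes 6.20% were at least 2-fold lower and 13.3% at least 2-fold higher. The 2 folate genes became 1 with scaling to control probe sets or GAPDH and with log2 of the signal plus 50. With the mean over probe sets the median was -0.08 and 1 gene was at least 2-fold lower. In that setting 6 of the 12 had a log2 ratio below 0, as did 43.6% of all measured genes. GART, which uses formyl-folate in purine synthesis, had 903.7 with gefitinib and 1812.4 with DMSO at its brightest probe set, 212378_at, 2.01-fold lower. It was lower at all 5 of its measured probe sets, by 3.77-fold at 212379_at and 3.07-fold at 210005_at, and the log2 ratio of its brightest lay between -1.19 and -0.83 over the scalings tried. MTHFD2L, a mitochondrial relative of MTHFD2, had 212.2 with gefitinib and 787.0 with DMSO at 238762_at, 3.71-fold lower, and its other 2 measured probe sets were at least 1.18-fold and at least 1.09-fold lower. Both genes were thus lower at every probe set that reached the floor.

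The remaining measured folate genes were within 2-fold at their brightest probe sets. ATIC, the next formyl-folate enzyme of purine synthesis, was 1.5-fold lower, and thymidylate synthase, TYMS, was 1.25-fold lower at 202589_at and 1.80-fold lower at 1554696_s_at. The mitochondrial folate carrier SLC25A32 had a log2 ratio of -0.28 and FPGS, which adds glutamates to folate, one of -0.19. The proton-coupled folate transporter SLC46A1 (0.76), MTFMT, which formylates the mitochondrial initiator tRNA (0.57), GGH, which removes glutamates (0.49), the reduced folate carrier SLC19A1 (0.25) and FTCD of histidine breakdown (a bound of 0.04) had log2 ratios above 0. The folate receptor FOLR1 was 1.22-fold lower at 211074_at but at least 3.72-fold higher at 204437_s_at. ALDH1L1 was below the floor, and MTHFS had no probe set paired with it alone.

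DNA replication needs the thymidylate and purines made with these units. All 19 listed replication genes had a log2 ratio below 0, where 43.0% of all measured genes did, with a median of -0.45. POLA1 (-0.04), MCM3 (-0.06) and PRIM1 (-0.08) were close to 0, and with GAPDH scaling 14 of the 19 were below 0 and 33.2% of all measured genes. At least 2-fold lower were 4 of the 19, against 6.20% of all measured genes, namely MCM7 (2.78-fold) and CDC45 (2.33-fold) of the replicative helicase, CDC6, which helps to load it (2.71-fold), and RRM2 of ribonucleotide reductase (2.48-fold). This number was 5 after quantile normalization or lowess correction and 7 with spike-in scaling. The genes at least 2-fold lower among all measured genes also rose, from 696 of 11223 as deposited. They were 813 of 11206 after quantile normalization, 838 of 11223 after lowess correction and 1036 of 11208 with spike-in scaling. The median of the replication genes lay between -0.64 and -0.27 over the scalings tried. The part of the replication genes in the values of MTHFD1, GART and TYMS was not tested.

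The steps that bring serine into cells and use it differed from one another. Of 15 genes for serine and glycine transport and use, 10 were measured. Of these 3 were past 2-fold upward and 1 downward, against 13.3% and 6.20% of all measured genes, with a median of 0.37, which was -0.09 with the mean over probe sets. The number upward was 2 with spike-in scaling and 4, with SPTLC2, with scaling to control probe sets or GAPDH. The number downward was 2 with a floor of 50 (median 0.27) and 0 with a floor of 200 (median 0.47). It was also 0 where both signals had to reach the floor (median 0.73). The neutral amino acid transporter SLC1A4, which carries serine and alanine, had 913.5 with gefitinib and 188.0 with DMSO at 212811_x_at, 4.86-fold higher, and was 6.39-fold and at least 5.52-fold higher at its other probe sets. SLC38A1, a glutamine carrier, had 6950.4 with gefitinib and 2359.6 with DMSO at 224579_at, 2.95-fold higher, and its relative SLC38A2 was 1.14-fold lower. SLC1A5, which exchanges serine, glutamine and other neutral amino acids, was 2.26-fold higher, and its log2 ratio was 0.98 with spike-in scaling. SFXN1, the mitochondrial serine carrier, was 1.13-fold higher, and SFXN3 was at least 2.67-fold lower at its single measured probe set. SPTLC2, a subunit of the enzyme that joins serine to palmitate, had probe sets in both directions, 1.98-fold higher at the brightest and 1.95-fold lower at 216202_s_at.

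For the glycine cleavage system, which yields a further unit from glycine, 3 of 4 genes were measured and all 3 were within 2-fold as deposited. AMT was 1.82-fold higher and passed 2-fold with scaling to control probe sets or GAPDH (log2 ratio up to 1.04). DLD was 1.18-fold higher and GCSH 1.38-fold lower, and GLDC was below the floor. Of 11 genes of the methionine cycle and transsulfuration, 8 were measured, 1 passed 2-fold upward and none downward, with a median of -0.06. The 1 of 8 is near the 13.3% of all measured genes past 2-fold upward, where 6.20% were past it downward. CBS, which joins serine and homocysteine, had 813.7 with gefitinib and 222.6 with DMSO at 212816_s_at, 3.66-fold higher, and was 2.32-fold higher at 1553972_a_at. AHCY, which releases homocysteine, was 1.96-fold lower, with 5176.1 with gefitinib and 10135.2 with DMSO, and its log2 ratio was -1.16 with spike-in scaling. CTH, the step after CBS, was 1.19-fold lower at 217127_at and 2.17-fold lower at 206085_s_at.

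ATF4 and some of its target genes made a list of 27, of which 26 were measured. Of the 26 measured, 24 were within 2-fold, and the median log2 ratio of the 26 was 0.14. The list leaves out genes placed elsewhere, such as PSPH and the other serine and folate enzymes, SLC1A4 and SLC1A5. Its counts and median thus do not cover every ATF4 target. At the brightest probe sets of the listed genes 2 were past 2-fold upward and none downward, against 13.3% and 6.20% of all measured genes. The number upward was 1 after quantile normalization, lowess correction or spike-in scaling, and 3 with the probe set of highest signal on either array. ATF4 had 13264.6 with gefitinib and 12513.6 with DMSO, 1.06-fold higher, and ASNS, which makes asparagine, was 1.09-fold higher. Past 2-fold were PCK2, the mitochondrial PEP carboxykinase (3460.9 with gefitinib and 1138.2 with DMSO, 3.04-fold higher), and the lipoprotein receptor gene VLDLR (2.06-fold higher, with a log2 ratio of 0.83 in its lowest scaling). DDIT3, a stress-induced C/EBP relative, had the lowest log2 ratio of the list, -0.92, which was -1.11 with spike-in scaling. STC2, a secreted glycoprotein, was 1.21-fold lower at the probe set used, 203439_s_at, and 3.48-fold higher at 203438_at (1629.2 with gefitinib and 467.7 with DMSO). SLC7A11 was 1.25-fold higher at the probe set used, 209921_at, and 3.96-fold lower at 207528_s_at. CARS1 was 1.54-fold higher at the probe set used and 2.48-fold higher at 202402_s_at. ATF3 was 1.52-fold lower at the probe set used and at least 2.05-fold lower at 1554420_at. Over the scalings tried the median of the ATF4 list lay between -0.05 and 0.31. Of 7 other regulators of serine synthesis genes, 5 were measured and 1 was at least 2-fold higher, the histone methyltransferase EHMT2 (1096.6 with gefitinib and 485.1 with DMSO, 2.26-fold), where 13.3% of all measured genes were. With spike-in scaling none was, EHMT2 having a log2 ratio of 0.99. MYC had 2264.7 with gefitinib and 1150.8 with DMSO, 1.97-fold higher, and was past 2-fold with scaling to control probe sets or GAPDH (log2 ratio up to 1.15).

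**Figure D3:**
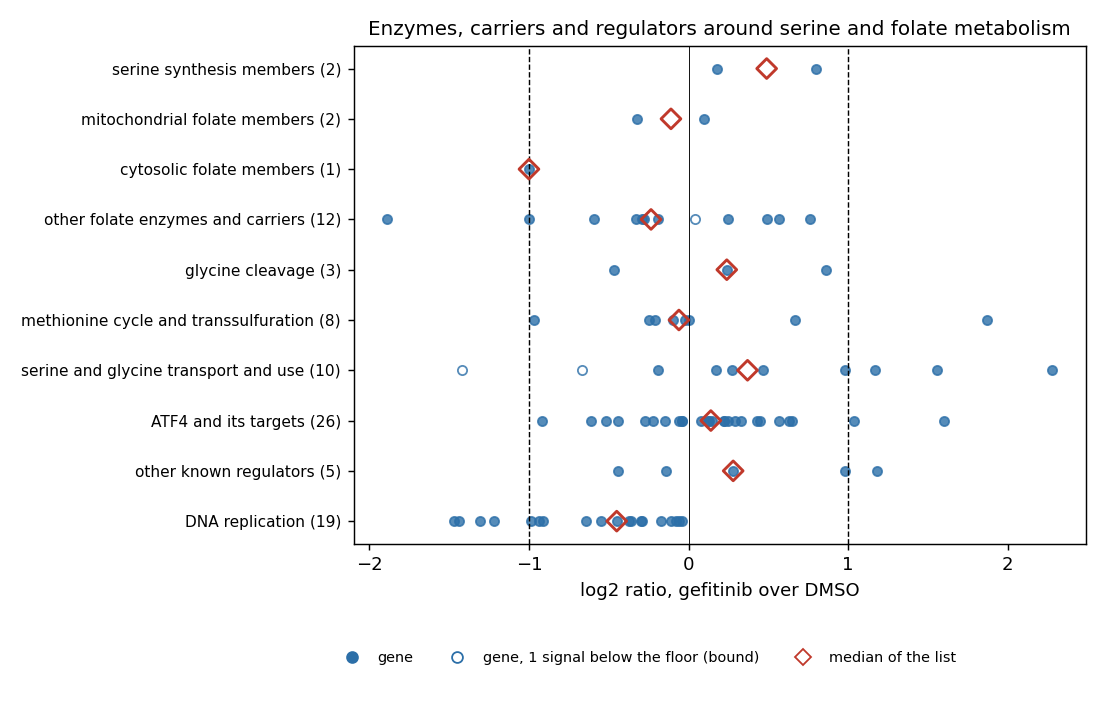
Horizontal axis, log2 ratio (gefitinib over DMSO) at the brightest probe set of each measured gene (blue circles) in 10 lists, each followed by how many of its genes were measured, with 1 array per condition. Open circles have 1 signal below the floor and are bounds, red diamonds are the medians, and dashed lines mark 2-fold; with the deposited scaling the DNA replication list lies wholly to the left of 0 and SLC1A4 is the point farthest to the right, at 2.28.

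The order of the 5 measured enzymes by log2 ratio was PSPH, PHGDH, MTHFD2, SHMT2 and MTHFD1. PHGDH (0.18), MTHFD2 (0.10) and SHMT2 (-0.32) lay within the spread between probe sets of 1 gene of each other, and PHGDH and MTHFD2 changed places after quantile normalization and lowess correction. PSPH stayed the highest and MTHFD1 the lowest under each setting tried.

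**Figure D4:**
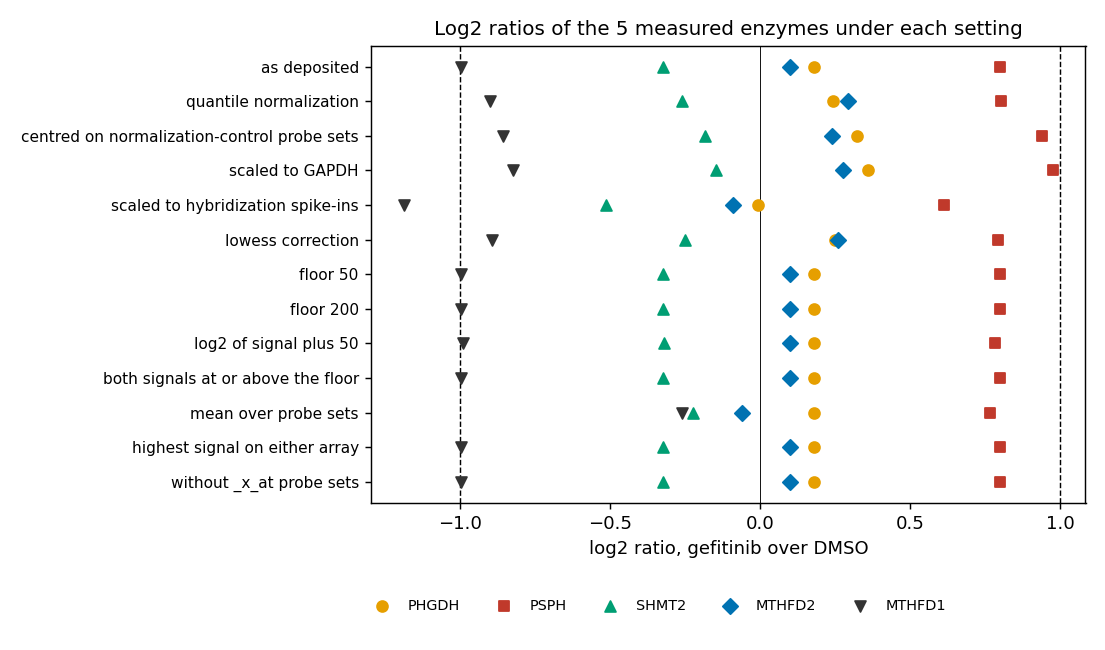
Horizontal axis, log2 ratio (gefitinib over DMSO) of the 5 measured enzymes under the settings tried (rows), with the deposited scaling in the top row. The setting that gives probe sets annotated with several genes to the enzyme they list is not drawn. Dashed lines mark 2-fold; MTHFD1 crosses the lower line with spike-in scaling, at -1.19, and moves to -0.26 with the mean over probe sets.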

How the data were processed

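RNA of 2 H322c cultures was hybridized to Affymetrix U133 Plus 2.0 arrays, 1 per condition, and samples were grouped by their treatment label. The authors deposited 1 table of MAS5 signal intensities on a linear scale, and no version of MAS5 is given in the sources used. The 2% trimmed mean was 500.1 on each array, so the table had already been scaled to a common mean, which would hide a shift of most transcripts in 1 direction. Of 54675 probe sets, 41097 were paired with 1 gene, 1801 with several and 11777 were not listed. Symbols were looked up in GRCh38.p14 by gene identifier for 41043 of them, a number that includes symbols left unchanged.

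Signals under 100 were set to 100, and each gene was represented by its brightest probe set (highest mean of both log2 signals), for which gefitinib was divided by DMSO. Folds with 1 signal under the floor are bounds. With 1 array per condition there was no test, and so few arrays limit the precision. The 9 enzymes and all other lists were chosen with earlier results of these data known. The text names each enzyme and each measured folate gene, and in the other lists those past 2-fold where they number 6 or fewer, otherwise the 6 with the largest log2 ratio. The cell type markers within 2-fold or below the floor and AHCY, CTH, AMT, DLD, GCSH, GLDC, SLC38A2, SFXN1, SPTLC2, ATF4, ASNS, DDIT3, STC2, SLC7A11, CARS1, ATF3, MYC, POLA1, MCM3 and PRIM1 were named beside these, after their values were seen. Alternatives were 5 other scalings, floors of 50 and 200, log2 of the signal plus 50, both signals required at the floor, other choices of probe set and limits of 1.5-fold and 3-fold. The calculation was checked on simulated data with known folds, which says nothing of the spread between cultures. Python 3.11.15 with numpy 2.4.6, pandas 2.3.3, statsmodels 0.14.6 and matplotlib 3.10.9 was used.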

Additional observations from a re-analysis of the deposited data

How the results depend on the processing

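The number of enzymes at least 2-fold lower was 0 as deposited and 1 (MTHFD1) when the arrays were scaled to the hybridization spike-ins. Of all measured genes, 696 of 11223 were at least 2-fold lower as deposited and 1036 of 11208 with the spike-ins. With a limit of 1.5-fold the number of enzymes lower was 1, and the number higher was 1 (PSPH), by construction of the lower limit. At 3-fold both numbers were 0. The median log2 ratio of the measured enzymes, 0.10 as deposited, lay between -0.09 and 0.27 over 13 alternatives, and its sign turned with spike-in scaling and with the mean over probe sets, where MTHFD2 had log2 ratios of -0.09 and -0.06. MTHFD1 moved to -0.26 with the mean over probe sets, because its second probe set went the other way. Giving the 5 probe sets annotated with several genes to the enzyme they list, an alternative chosen after seeing the data, left both numbers at 0 among 7 measured enzymes. Relative to the deposited scaling, the median log2 ratio of all measured genes shifted by 0.13 with control probe sets, by 0.17 with GAPDH and by -0.18 with the spike-ins. At least 2-fold higher were 1491 measured genes as deposited, 1888 with control probe sets, 1987 with GAPDH and 1072 with the spike-ins. At least 2-fold lower were 696, 531, 492 and 1036 in the same order. No replicate could be left out, and no paired analysis was possible because each condition has 1 array. Signals under the floor limit what can be said of PSAT1 and ALDH1L2.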
